A study of Mus musculus with 4 samples.

Results

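The genes of endoplasmic reticulum (ER) protein folding and of ER-associated degradation (ERAD) were followed in the NFIC ChIP-Seq peak list of mouse pancreas. The 37 members were chosen by gene symbol for the work of their products, with earlier results of these data known. They comprise 10 genes of the HSP70 system and its cochaperones, 1 HSP90, 3 lectin chaperones or their checkpoint enzyme, 8 disulfide isomerases and related oxidoreductases, 2 prolyl isomerases and 13 ERAD genes. A member was counted as bound when the authors' annotation assigned at least 1 peak to it as the gene with the nearest transcription start site (TSS). For the peaks assigned to Herpud1, RefSeq holds a nearer start, that of Gm15889. At least 1 of the 15824 peaks was assigned to 21 of the 37 members, and these 21 were among 9086 genes with a peak in the whole list. The 39 peaks of the members are described here.

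The libraries came from whole pancreas of wild-type mice whose strain was labelled Mixed, 8 to 12 weeks of age per the design text. NFIC was immunoprecipitated from 3 libraries with the antibody Bethyl A303-123A, and 1 library was input DNA. The deposited values were 1 merged list, so none of them belongs to a single library, the depth is unknown and no error between replicates could be given. The intervals given below are 95% Wilson intervals, which cover counting error only, and no test between groups of samples was possible. Intervals for shares of peaks treat the peaks of a gene as independent, which they are not. Whole pancreas holds acinar, duct, islet and stromal cells, and a peak of this list cannot be placed in any of them. All peaks were 173 bp wide, and their score, on a scale that the sources used here do not state, ran from 3.39 to 68.1 with a median of 6.57.

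Acinar cells of the pancreas secrete large amounts of digestive enzymes, which fold in the ER with the help of BiP (the HSP70 of this compartment), calnexin and calreticulin, protein disulfide isomerases and prolyl isomerases. Proteins that fail to fold are trimmed by mannosidases, moved back through the membrane and degraded by the proteasome, which is ERAD. When unfolded proteins accumulate, the transcription factors ATF6 and XBP1 raise the expression of these genes, in part through the ER stress response element (ERSE), in which a CCAAT box bound by NF-Y and a CCACG box lie at a fixed spacing. NFI proteins, of which NFIC is a member, bind as dimers to a palindrome with the arms TGGC and GCCA.

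The sequences that bear on both kinds of element are shown first, for the members whose promoters hold an ERSE and for the strongest peaks. The ERSE was searched as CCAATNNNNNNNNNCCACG with no mismatch, on both strands, in the RefSeq promoter table of GRCm38.p6 (the build that the authors' mm10 stands for), from 250 bases before to 50 bases after each gene's start. Of the 37 members 33 were in that table, all but Derl1, Hyou1, Manf and Sil1. An ERSE was found in 9 of these 33 (27.3%), against 29 of the 16853 protein-coding genes of the table (0.172%), and the 29 include these 9. The members are genes that the element is known to act on, so this excess is no independent result. Each element is printed below 5′ to 3′ on the strand on which CCAAT comes first, with the element in capitals, 6 flanking bases on each side, and its place given as the distance from its centre to the start.
Hspa5, -56 bp, chr2:34772025-34772043: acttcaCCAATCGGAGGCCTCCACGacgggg
Hsp90b1, -203 bp, chr10:86705638-86705656: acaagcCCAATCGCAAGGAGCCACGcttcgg
Hsp90b1, -98 bp, chr10:86705533-86705551: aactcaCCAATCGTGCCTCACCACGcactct
Calr, -153 bp, chr8:84847075-84847093: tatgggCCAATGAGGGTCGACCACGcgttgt
Canx, -136 bp, chr11:50325800-50325818: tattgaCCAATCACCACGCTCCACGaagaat
Pdia6, -89 bp, chr12:17266491-17266509: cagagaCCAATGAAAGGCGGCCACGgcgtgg
Creld2, -117 bp, chr15:88819520-88819538: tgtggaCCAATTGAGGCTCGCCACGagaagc
Dnajc3, -96 bp, chr14:118937827-118937845: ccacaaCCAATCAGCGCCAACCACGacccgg
Derl3, -147 bp, chr10:75893242-75893260: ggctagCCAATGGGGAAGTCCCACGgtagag
Syvn1, -35 bp, chr19:6046532-6046550: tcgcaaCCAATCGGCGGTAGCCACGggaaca
The first element of Hsp90b1 and that of Derl3 each overlap a match to the NFI palindrome with 1 mismatch, so these letters were counted under both motifs.

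Only Canx, Dnajc3 and Derl3 among these 9 genes had an NFIC peak within 1000 bp upstream of the TSS, and their upstream sequence is given in the direction of the gene, from the peak to the ERSE nearest the start (in Dnajc3 and Derl3 from within the peak, so that the run holds 300 bases). In capitals are each ERSE, each NFI palindrome (TGGCNNNNNGCCA with at most 1 mismatch among its 8 fixed bases) and each single NFI arm (TTGGCA on either strand).
Canx, chr11:50325800-50326020, minus strand: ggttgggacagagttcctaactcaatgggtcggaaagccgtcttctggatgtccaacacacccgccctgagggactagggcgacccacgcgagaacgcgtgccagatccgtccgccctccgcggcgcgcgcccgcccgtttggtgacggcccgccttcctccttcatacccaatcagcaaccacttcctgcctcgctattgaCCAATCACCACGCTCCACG
Dnajc3, chr14:118937546-118937845, plus strand: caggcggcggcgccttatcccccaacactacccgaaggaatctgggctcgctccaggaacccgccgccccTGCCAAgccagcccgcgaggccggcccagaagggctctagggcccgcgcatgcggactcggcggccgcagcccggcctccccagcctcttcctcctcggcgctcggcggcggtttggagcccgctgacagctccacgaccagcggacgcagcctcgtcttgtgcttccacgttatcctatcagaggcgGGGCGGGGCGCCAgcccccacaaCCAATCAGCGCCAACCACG
Derl3, chr10:75892961-75893260, plus strand: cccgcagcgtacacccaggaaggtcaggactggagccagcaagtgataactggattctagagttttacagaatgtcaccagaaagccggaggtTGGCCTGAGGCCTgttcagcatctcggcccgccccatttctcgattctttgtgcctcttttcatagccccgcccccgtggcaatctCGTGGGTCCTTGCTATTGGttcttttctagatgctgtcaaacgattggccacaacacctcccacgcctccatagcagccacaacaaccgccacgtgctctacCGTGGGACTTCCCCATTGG
In Canx the only capitals are the ERSE at the end of the run, since its peak held neither NFI form. In Dnajc3 the single arm lies inside the peak, and the palindrome and the ERSE lie after it. Derl3 holds, in this order, a palindrome inside the peak and 2 ERSE in reverse orientation, of which the first, at chr10:75893140-75893158 and -249 bp, was partly outside the promoter table's window. For comparison, the upstream sequence of Hspa5, which encodes BiP, carried an ERSE and a palindrome with 1 mismatch, and no peak of the list lay there. Since the depth is unknown, a promoter with no listed peak, in Hspa5 or any other member, is not shown to be unbound.
Hspa5, chr2:34771840-34772089, plus strand: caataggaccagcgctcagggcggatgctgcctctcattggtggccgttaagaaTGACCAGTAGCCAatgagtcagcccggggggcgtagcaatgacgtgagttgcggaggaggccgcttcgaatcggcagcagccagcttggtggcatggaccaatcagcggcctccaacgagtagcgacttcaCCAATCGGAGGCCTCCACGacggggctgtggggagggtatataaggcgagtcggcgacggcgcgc

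The palindrome itself was present without mismatch in 7 of the 39 member peaks. Those of Creld2, Edem1, Herpud1 and Os9 are printed on the plus strand of GRCm38.p6 with the 13-base site in capitals and 8 flanking bases, followed by the site of the highest-scoring Herpud1 peak, which has 1 mismatch. The seventh site, in a Sil1 peak, is not shown.
Creld2, peak at 12005 bp: caggccttTGGCCCCACGCCAacctgctt
Edem1, peak at 42828 bp: tgagaaagTGGCAAGAAGCCAcagcaaca
Edem1, peak at 173630 bp: cttgtcctTGGCACTGTGCCAaatgcctg
Edem1, peak at 344059 bp: gcgttgttTGGCACGATGCCAggaatgca
Herpud1, peak at -27647 bp: actctcatTGGCGATTTGCCAtcccctga
Os9, peak at -4242 bp: ccgatagaTGGCTGTGAGCCAccaagtgg
Herpud1, peak at -8650 bp: ctggatgtTGGCTGGAGTCCAtgtgactc
The whole of the member peak with the highest score, that of Creld2, read as follows, with the palindrome in capitals.
Creld2, chr15:88831565-88831737, plus strand: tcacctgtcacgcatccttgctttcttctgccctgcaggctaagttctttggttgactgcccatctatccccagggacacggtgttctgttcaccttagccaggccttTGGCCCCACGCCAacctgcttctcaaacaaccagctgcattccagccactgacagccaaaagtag

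Binding to the members was first counted by gene. The 21 bound members were 56.8% of the 37 (interval 40.9 to 71.3%), and 7807 of the 21000 protein-coding genes of RefSeq (37.2%) had a peak. The promoter was taken as the 1000 bp before the TSS, and 8 members had a peak there, namely Canx, Derl3, Dnajb9, Dnajc3, Fkbp2, Hyou1, P4hb and Sdf2l1. These were 38.1% of the bound members (interval 20.8 to 59.1%), against 26.2% of all bound genes in the list and 26.2% of the 9065 other bound genes. The list also holds non-coding genes, and among the 7786 bound protein-coding genes other than members the share was 28.8%. Among all members, bound or not, the share with a promoter peak was 21.6%, and among all protein-coding genes it was 10.7%. The interval of the bound members' share included that of the other bound genes.

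Several peaks lay just past the start, so the count depended on where the window ended. With the window extended to 100 bp after the TSS, Derl1, Derl2 and Pdia5 were added and 11 of 21 bound members had a peak in it (52.4%, interval 32.4 to 71.7%). The share was 33.3% of all bound genes and 36.5% of bound protein-coding genes other than members. From -1000 to 1000 bp the shares were 57.1% of bound members and 44.9% of other bound genes, and from -5000 bp to the TSS they were 47.6% and 33.3%. In all 4 windows the members' share was the higher, and in each its interval included the other genes' share. All of them contain the 1000 bp before the TSS, so they are not independent.

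**Figure D1:**
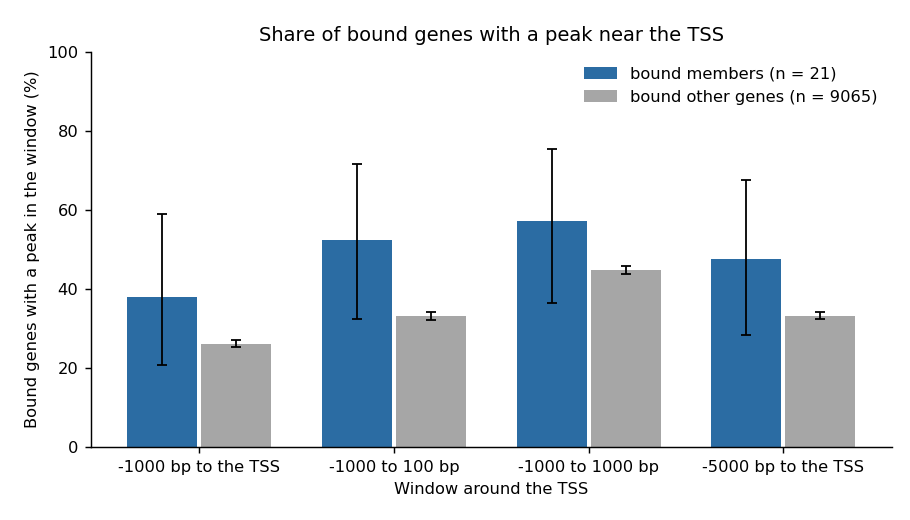
Bars give the percent of bound genes with at least 1 NFIC peak in 4 windows around the TSS (x axis, in bp), for the 21 bound members and the 9065 other bound genes, and error bars are 95% Wilson intervals. The members' bars run from 38.1 to 57.1%, above the grey bars in each window, and their intervals include the grey bars. The other bound genes include non-coding ones.

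The peaks were then counted by role. The 24 folding genes contributed 13 bound genes, 15 peaks and 7 of the 8 genes with a promoter peak. The 13 ERAD genes contributed 8 bound genes, 24 peaks and 1 gene with a promoter peak. Of all protein-coding genes, 37.2% were bound and 10.7% had a promoter peak. With the window extended to 100 bp after the TSS, Derl1 and Derl2 brought the ERAD genes to 3, and Pdia5 joined the folding genes. Of the 24 ERAD peaks, 19 (79.2%) lay more than 2000 bp from the TSS of the assigned gene. Of the 15 peaks of the folding genes 4 did (26.7%), and of all peaks of the list 68.5%. Edem1 and Herpud1 alone held 11 of the ERAD peaks, and without them 9 of 13 (69.2%) lay beyond 2000 bp, close to the share of the whole list. The genes share peaks of 1 merged list and were not sampled independently, so these counts are given without a test.

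**Figure D2:**
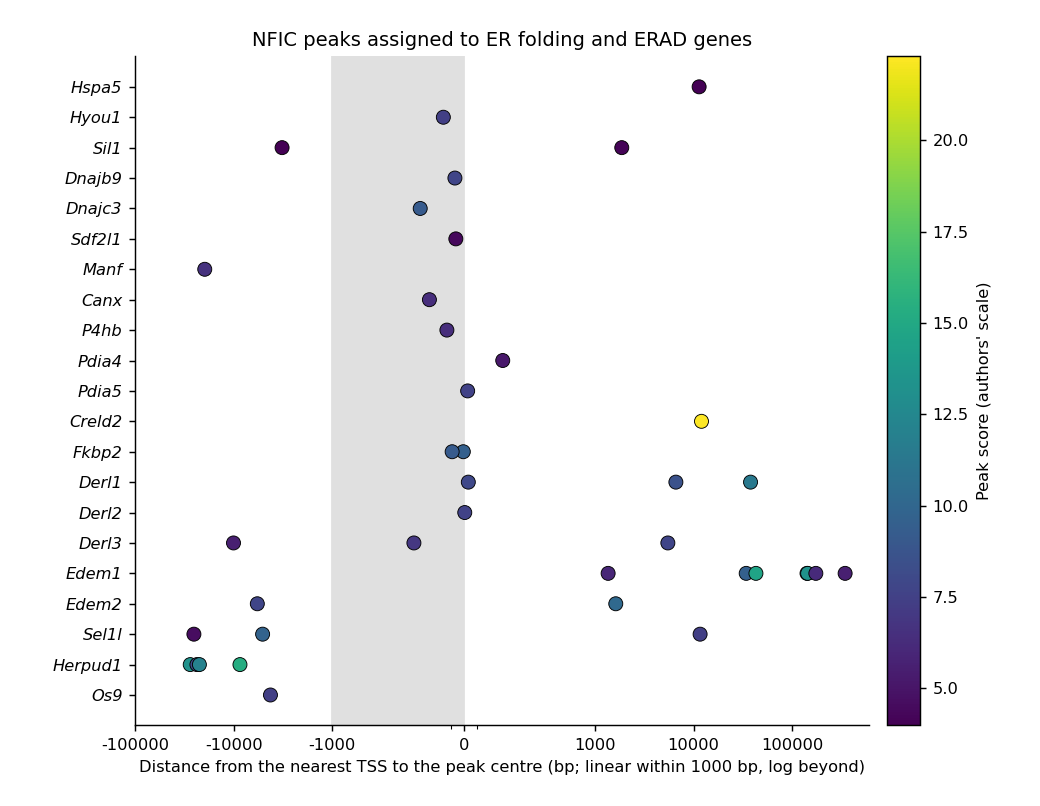
Each point is 1 of the 39 NFIC peaks assigned to a member, placed by the distance from the TSS to the peak centre (x axis, bp, negative upstream, linear within 1000 bp and log beyond), with the peak score as colour and the promoter window shaded. The points of the chaperones and isomerases lie within 1000 bp of the TSS, except those of Hspa5, Sil1, Manf and Creld2, and the farthest points of Edem1, Herpud1, Sel1l and Derl1 are 25374 to 344059 bp from it.

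In the HSP70 system, 7 of 10 genes were bound and 4 had a promoter peak. Hspa5, which encodes BiP, had a single peak at 11357 bp from its TSS, chr2:34783361-34783533, in intron 6 of 7 of Rabepk. Its score of 3.98 was among the lowest of the list, with 95.7% of all peaks scoring as high or higher. Hyou1, which encodes a nucleotide exchange factor for BiP, had a peak at -155 bp with a score of 7.37. The other exchange factor of BiP, Sil1, had a peak in its 5′ UTR at 1864 bp and another in intron 1 of 9 at -3234 bp, with scores of 4.18 and 3.98.

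Of the DNAJ cochaperones, which stimulate the ATPase of BiP, those with a peak carried it in the promoter. Dnajb9 was bound at -67 bp (chr12:44210049-44210221) with a score of 7.77, and this peak also lay 178 bp upstream of the start of Mir5627. Dnajc3, whose product also inhibits the kinase PERK, was bound at -331 bp (chr14:118937515-118937687) with a score of 9.16. Dnajb11 and Dnajc10 had no peak. The nearest peak of any gene lay -9338 bp from the TSS of Dnajb11 and was assigned to Tbccd1, whereas for Dnajc10 it lay 246181 bp away, the largest such distance among the members.

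Sdf2l1 and Sdf2 encode related proteins of the ER lumen. Sdf2l1 had a peak at -60 bp (chr16:17132357-17132529) with a score of 4.38, the lowest of the 9 promoter peaks. Sdf2 had none, and the nearest peak lay 15906 bp from its TSS. Manf, which encodes a secreted factor induced by ER stress, had a single assigned peak at -19687 bp in intron 44 of 52 of Dock3, with a score of 6.57. A peak with a score of 18.9 that was assigned to Rbm15b lay nearer, 4471 bp from the Manf start. Assignment to the nearest TSS thus leaves some near peaks to other genes.

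The HSP90 paralogue of the ER, Hsp90b1, had no peak, and the nearest lay 64621 bp upstream of its TSS. Among the lectin chaperones of the calnexin cycle, Canx was bound at -261 bp (chr11:50325848-50326020) with a score of 6.37. Calr, which encodes the soluble counterpart calreticulin, had no peak, and the nearest lay 24622 bp upstream, in the promoter of Syce2. Uggt1, which returns misfolded glycoproteins to the cycle, had none within 79706 bp.

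Of the 8 genes of disulfide exchange, 4 were bound, each by 1 peak. P4hb, the prototype protein disulfide isomerase, had a peak at -128 bp (chr11:120573295-120573467) with a score of 6.37. The peak of Pdia5 was centred 30 bp after the TSS (chr16:35490757-35490929, score 7.57) and that of Pdia4 lay in intron 1 of 9 at 297 bp (score 5.18). Creld2, an ER stress-induced gene whose product has disulfide isomerase activity, had the member peak with the highest score, 22.3, at 12005 bp in an intergenic region, and only 166 of all peaks (1.05%) scored as high or higher. The nearest other gene, Alg12, started 12333 bp from it. Pdia3, Pdia6, Txndc5 and Txndc11 had no peak, and the nearest to their starts were 28806, 153784, 130193 and 24481 bp away.

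Fkbp2, a prolyl isomerase of the FK506-binding family, was the only member with 2 promoter peaks. They were centred at -3 bp (chr19:6980003-6980175, score 9.56) and -88 bp (chr19:6980466-6980638, score 9.16), each measured from the start of a different Fkbp2 transcript, and both scores were in the top quartile. These peaks also lay 351 bp downstream and 112 bp upstream of the start of LOC114841036. Ppib, which encodes the cyclophilin of the ER, had no peak. The nearest, 8924 bp from its TSS, was assigned to Snx22 and was the closest to a start among the members with no peak.

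In ERAD, the derlin family of membrane proteins was bound in all 3 of its members. Derl1 had peaks at 35 bp (score 7.97), at 6598 bp in intron 1 of 7 (score 8.56) and at 37767 bp (score 11.4). For Derl1 the score was higher the farther the peak lay from the TSS. Derl2 had 1 peak at 8 bp (chr11:71019209-71019381, score 7.57), which also lay 316 bp upstream of Mis12, the divergent neighbour. The peaks of Derl3 were at -379 bp (chr10:75892933-75893105, score 6.97), at 5470 bp in intron 7 of 8 of Smarcb1 (score 7.77) and at -10059 bp (score 5.58).

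The mannosidase-like proteins of the EDEM family mark glycoproteins for degradation, and their genes covered the range of binding in the set. Edem1 had 7 peaks, the most of any member, all downstream of its TSS. The nearest, at 1355 bp in intron 1 of 11, had a score of 5.98. The peak at 42828 bp (chr6:108871383-108871555) had a score of 14.7 and that at 143343 bp (chr6:108971898-108972070) a score of 13.3. Those at 34116, 141260, 173630 and 344059 bp had scores of 9.56, 7.57, 6.17 and 5.58. The 4 peaks beyond 100 kb of a TSS among the members were all of Edem1, and they were 10.3% of member peaks, against 7.60% of all peaks. Edem2 had peaks at 1620 bp in intron 2 of 10 (score 10.2) and at -5767 bp (score 7.77). Edem3 had none, and the nearest lay 35249 bp upstream.

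Herpud1, which encodes an ER stress-induced scaffold of the ERAD ligase complex, had 4 peaks, all upstream and none in the promoter. The nearest, at -8650 bp (chr8:94377693-94377865), had a score of 15.3 and lay 96 bp upstream of the RefSeq start of Gm15889. The other 3, at -22317, -23646 and -27647 bp, had scores of 12.0, 8.17 and 13.3 and all lay in intron 24 of 24 of Slc12a3. They lay 13763, 15092 and 19093 bp upstream of the start of Gm15889. All 4 peaks assigned to Herpud1 were thus nearer to the RefSeq start of Gm15889 than to that of Herpud1. Sel1l, the adaptor of the ligase HRD1, had peaks at -5095 bp (score 9.76), at 11621 bp in intron 3 of 20 (score 7.37) and at -25374 bp (score 4.58). Os9, a lectin that delivers glycoproteins to this ligase, had 1 peak at -4242 bp (chr10:127125316-127125488) with a score of 7.37.

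The downstream components of ERAD had no assigned peak. Syvn1, which encodes HRD1, had no peak within 30092 bp of its TSS, and Vcp, the ATPase that extracts substrates from the membrane, had none within 25323 bp. The same held for its cofactors, with the nearest peak 133785 bp from the TSS of Ufd1 and 20420 bp from that of Nploc4. Over the 16 members with no peak, the nearest peak of any gene was 8924 to 246181 bp from the TSS with a median of 29449 bp, and in 13 of them it was over 20 kb away. None of these 16 genes thus had a peak of a neighbouring gene in its own promoter window.

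Scores of the member peaks ran from 3.98 to 22.3 with a median of 7.57, against 6.57 for all peaks. The upper 2 quartiles of score in the whole list, where ties put 51.6% of all peaks, held 27 of the 39 member peaks (69.2%, interval 53.6 to 81.4%). This interval counts each peak as independent, although Edem1 and Herpud1 held 11 of the 39. By quartile from the highest, the member peaks numbered 13, 14, 7 and 5. The 9 promoter peaks had scores of 4.38 to 9.56 with a median of 7.37, and the other 30 had a median of 7.67. The median was 7.87 for the ERAD genes and 6.57 for the folding genes, the latter the same as for all peaks. The 5 peaks with the highest scores were assigned to Creld2, Herpud1 and Edem1, and all of them lay more than 8 kb from the TSS of that gene. Those of Herpud1 were nearer to the start of Gm15889, and 1 of them lay 96 bp upstream of it.

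**Figure D3:**
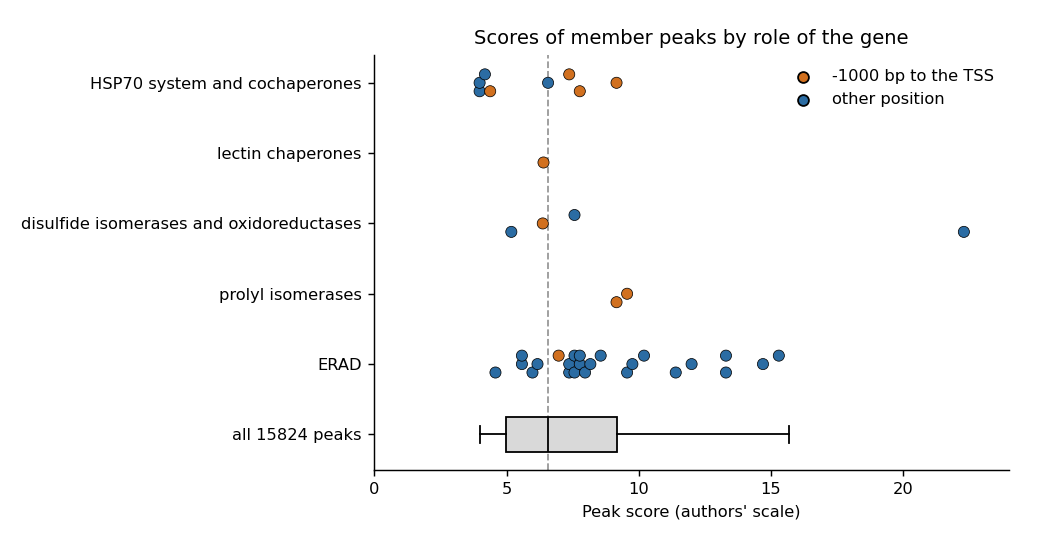
Points are the scores (x axis, authors' scale) of the 39 member peaks by role of the gene, orange for peaks from -1000 bp to the TSS, and the box gives the median, quartiles and, as whiskers, the 5th and 95th percentiles of all 15824 peaks, with the dashed line at their median of 6.57. The promoter peaks stay between 4.38 and 9.56, and the highest points belong to ERAD genes and, at 22.3, to Creld2.

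By the authors' annotation, 12 member peaks were at promoters or starts (30.8%, against 20.7% of all peaks), 12 in introns, 14 intergenic and 1 in a 5′ UTR. Of the member peaks, 16 (41.0%) were over 10 kb from the TSS, against 50.9% of all peaks. Of the intronic and other genic peaks, 6 lay within a gene other than the member to which they were assigned. The GC content of the 200 bp around the centres had a median of 53.5% in member peaks and 54% in all peaks.

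The NFI palindrome with at most 1 mismatch was sought in the 200 bp around each peak centre, which is wider than the 173 bp peaks. A match can thus cross the edge of the peak, as in Hspa5, or lie beyond it. The palindrome was found in 20 of the 39 member peaks (51.3%, interval 36.2 to 66.1%), against 51.8% of all peaks. Without mismatch it was found in 7 (17.9%) and in 13.4% of all peaks. The sites were unevenly placed. Of the 9 promoter peaks, 2 held a palindrome, that at -3 bp of Fkbp2 and that of Derl3, and 0 held it without mismatch, against 37.7% and 5.30% of all promoter peaks in the list. Of the other 30 member peaks, 18 held it (60%), against 54.3% of all peaks outside promoters. A single arm was present in 17 member peaks (43.6%, against 33.6% of all peaks), which include the Dnajc3 promoter peak and that at -88 bp of Fkbp2. The promoter peaks of Canx, Dnajb9, Hyou1, P4hb and Sdf2l1 held neither the palindrome nor the arm. With 9 promoter peaks the interval of the share with a palindrome, 6.32 to 54.7%, included that of all promoter peaks. Of the 5 peaks with the highest scores, 4 held the palindrome, 3 of them without mismatch, and the Edem1 peak at 143343 bp held a single arm.

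The CCAAT box, searched as CCAAT on both strands in the same 200 bp, was found in 17 of the 39 member peaks (43.6%, interval 29.3 to 59.0%), against 24.7% of all peaks. In Os9 and Pdia4 the only match lay outside the 173 bp of the peak, and in Canx it crossed the edge. The CCAAT box can share letters with an NFI arm, since GCCAA followed by T holds CCAAT. In the promoter peaks it was found in 5 of 9, namely those of Canx, Dnajb9, Hyou1 and Sdf2l1 and that at -88 bp of Fkbp2, against 27.5% of all promoter peaks. The Sdf2l1 peak held 3 of them. The SP motif GGGCGG was present in 6 of the 9 and in 58.2% of all promoter peaks. The cyclic AMP element TGACGTCA was in 0 member peaks and in 0.543% of all peaks.

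No exact ERSE overlapped an NFIC peak in the 9 members that held one. In Canx the ERSE began 29 bp from the edge of the peak, in Derl3 the gaps were 34 and 136 bp for its pair of elements, and in Dnajc3 the gap was 139 bp. In all 3 genes the ERSE lay between the peak and the TSS, as the printed sequences show. With 1 mismatch allowed, 1 of the 16 members with a match in the promoter windows had it inside a peak, namely Fkbp2 at chr19:6980092-6980110, in the peak at -3 bp. Within the 200 bp around the centre, 0 of the 39 member peaks and 1 of all 15824 peaks held an exact ERSE. The nearest peak was 11317 bp from the ERSE of Hspa5 and 12026 bp from that of Creld2. For Calr, Hsp90b1, Pdia6 and Syvn1, which had no peak, it was 24373 to 153599 bp away. An ERSE was in the promoter of 5 of the 17 bound members of the table and of 4 of the 16 members with no peak.

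**Figure D4:**
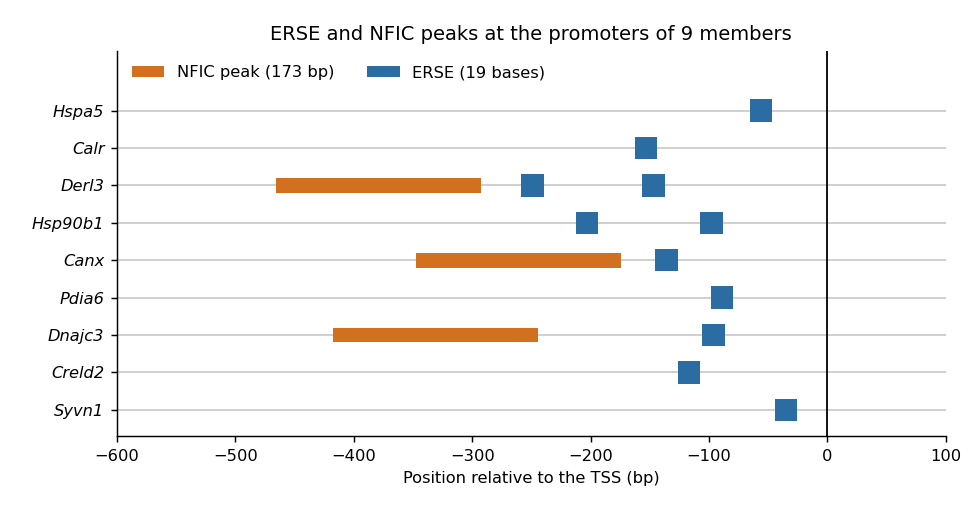
For the 9 members with an ERSE, blue boxes mark each ERSE and orange bars the NFIC peaks by position relative to the TSS (x axis, bp). Canx, Derl3 and Dnajc3 have a peak, which ends 29 to 139 bp before the ERSE, and the other 6 genes have none in the range drawn. The order of peak and ERSE follows from the windows searched.

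Other elements of the stress response were rarer. The ERSE-II, searched as ATTGGNCCACG, was in the promoter windows of Herpud1, centred at -47 bp, and of Dnajb11, at 12 bp, and in 0.0653% of protein-coding promoters. From 1000 bases before to 100 after the start it was found in 5 of 37 members, with Hyou1, Manf and Ufd1 added (13.5%, against 0.129% of protein-coding genes). It was also in the Hyou1 promoter peak, where it overlapped the core of the XBP1 site, TGACGTGG, and 4 of all peaks held it. The Hyou1 peak was the only member peak with either motif, and 72 of all peaks (0.455%) held TGACGTGG. In promoter windows TGACGTGG was found in Txndc11, Txndc5 and Vcp, none of them bound, and in 0.843% of protein-coding promoters.

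In the same windows, which need not contain a peak, the CCAAT box was found in 25 of 33 members (75.8%) and 42.6% of protein-coding genes, and GGGCGG in 23 (69.7%) and 50.7%. The NFI palindrome with at most 1 mismatch was found in 13 members (39.4%) and 18.1% of protein-coding genes. Of these 13, 10 were among the 17 bound members and 3, namely Dnajb11, Hsp90b1 and Vcp, among the 16 with no peak. A bound member need not be bound at its promoter. Of the 7 members in the promoter table with a promoter peak, 3 held the palindrome, namely Derl3, Dnajc3 and Fkbp2. Only the palindromes of Derl2 and Fkbp2 in these windows overlapped the peak nearest the start. Without mismatch the palindrome was in 0 of the 33 and in 0.914% of protein-coding genes. The ERSE and ERSE-II contain a CCAAT box. The palindromes of Derl3, Dnajb11, Herpud1, Hsp90b1, Hspa5, Os9 and Sel1l share bases with a CCAAT box, and that of Dnajc3 shares bases with GGGCGG. The shares of these motifs, the palindrome included, are therefore not independent of each other.

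**Figure D5:**
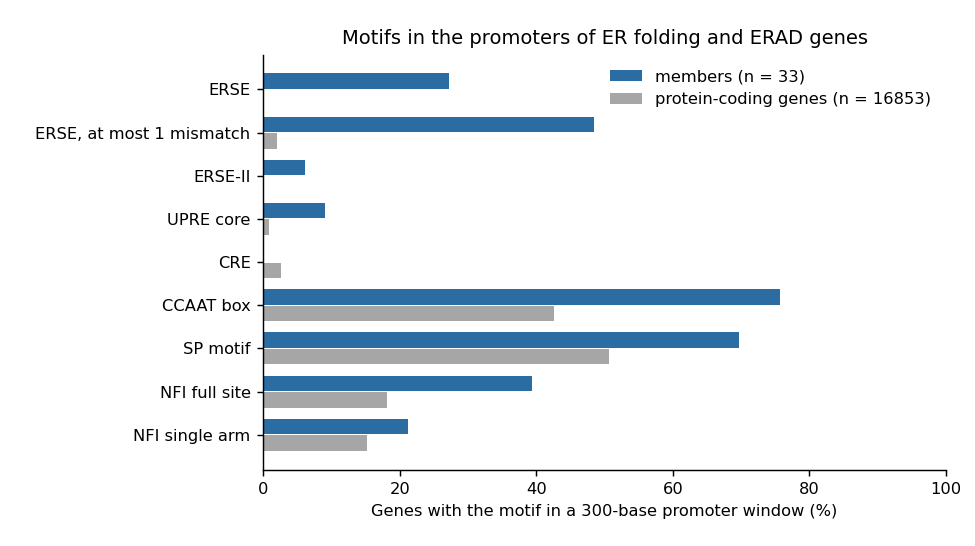
Bars give the percent of genes with each motif in the window from 250 bases before to 50 bases after the start, for the 33 members in the RefSeq table and the 16853 protein-coding genes. The ERSE stands at 27.3% in members and at 0.172%, too low to see, in all genes, and the CCAAT box is the most frequent motif in members at 75.8%.

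The rest of the pathway was taken from lists of 35 other folding genes and 35 other ERAD genes. Of these 70 genes, 36 were bound (51.4%) and 20 had a promoter peak (28.6%), against 56.8% and 21.6% for the members. The folding genes with a promoter peak included Ero1a and Ero1b, the oxidases that reload disulfide isomerases, at -95 bp (score 5.98) and -409 bp (score 11.8). Erp27, an ER protein abundant in pancreas, was bound at -71 bp with a score of 11.4. The others were Fkbp9, Dnajc1, Mlec, Ganab, Cnpy3 and Hspa13. The other ERAD genes had a promoter peak in 11 of 35 (31.4%), against 1 of 13 ERAD members (7.69%, interval 1.37 to 33.3%). With the window to 100 bp after the TSS the counts were 12 of 35 and 3 of 13. The 11 were Ube2j2, a ubiquitin-conjugating enzyme bound at -57 bp with a score of 16.5, Tmub2, Erlin1, Rnf139, Marchf6, Ngly1, Svip, Herpud2, Jkamp, Bcap31 and Sel1l3.

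Of 25 sensors and transcription factors of the unfolded protein response, 16 were bound (64%) and 4 had a promoter peak (16%), against 37.2% and 10.7% of all protein-coding genes. These were Atf4 at -67 bp (score 9.76), Ddit3 at -328 bp (score 6.57), Atf3 at -311 bp (score 25.5) and Nupr1 at -128 bp (score 20.5). Atf3 and Nupr1 thus had promoter scores above 20, and no member promoter peak exceeded 9.56. The median of the member promoter peaks was 7.37, against 6.57 for all promoter peaks of the list. Of 52 genes of the translocon and of vesicle coats, 21 were bound (40.4%) and 6 had a promoter peak (11.5%), shares near those of all protein-coding genes. The 6 were Sec61b, Sec16a, Sec31a, Kdelr3, Tmed2 and Tmed10.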

How the data were processed

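NFIC ChIP-Seq and input libraries of wild-type mouse pancreas were represented by 1 merged peak table made with HOMER annotatePeaks.pl on mm10, per the file headers. The submitters' processing notes name BWA, Picard and MACS2, and per the study's methods, in a paragraph that opens with downloaded data, reads were aligned and peaks called with RUbioSeq+, and HOMER was used to merge replicates and also to call and annotate peaks. Which caller gave the deposited scores is not stated there. The deposited table gives a peak score on a scale not stated, a fraction that describes how the tags of a peak lie around its centre, and the distance from the nearest TSS in bp. It holds 0 columns with values of a single library, so all 3 NFIC libraries formed 1 group, no replicate error or depth could be given, and no model was fitted.

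The 37 members and the comparison lists were chosen with earlier results of these data known. All members were accounted for, those with a promoter peak, with 3 or more peaks or with 1 of the 5 highest scores in full, and pathway genes as counts, naming those with a promoter peak. Shares were compared with all peaks or genes (pandas 2.3.3, scipy 1.17.1, Wilson intervals at 95%). Distances were checked against RefSeq GRCm38.p6, and 39 of 39 member peaks differed by at most 2 bp. Motifs were searched on both strands (pysam 0.24.0), in 200 bp around peak centres and in RefSeq promoter windows of 300 bases, with a scan tested on simulated sequences. Alternatives covered the promoter window, the score, merging of peaks within 500 bp, the motif window and mismatches.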

Additional observations from a re-analysis of the deposited data

How the results depend on the processing

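No paired analysis was possible because the table holds no value of a single library, and for the same reason no replicate could be left out. The share of bound members with a promoter peak stayed above that of the other bound genes under each alternative window and with the upper scores only. Each alternative window contains the 1000 bp before the TSS, and the upper scores are a part of the same peaks. These settings are therefore not independent of the main count. With only the upper 2 quartiles of score, 27 member peaks, 15 bound members and 5 members with a promoter peak were left, fewer by construction, and the share of bound members with a promoter peak was 33.3%, against 23.1% of other genes. With the window from -1000 to 1000 bp, 12 members had a peak in it and the share among other bound genes was 44.9%. Counting peaks within 500 bp once left 38 member peaks. Using every RefSeq start, not only the assigned gene, gave the same 8 members with a promoter peak. The NFI palindrome was found in 7 member peaks when no mismatch was allowed, in 18 within 100 bp and in 22 within 400 bp of sequence (46.2% and 56.4%, against 39.4% and 58.3% of all peaks), so the members' share was below that of all peaks within 200 and 400 bp and above it within 100 bp or without mismatch. The ERSE was found in 16 of 33 member promoters with 1 mismatch allowed (48.5%, against 2.04% of protein-coding promoters), and in 9 of 37 with the window from 1000 bases before to 100 after the start (24.3%, against 0.190%). Unknown depth limits the 16 members with no peak and the bound members with no promoter peak, Hspa5 among them: no call of absence can be made.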
